A study of Homo sapiens with 14 samples.

Results

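The mitochondrial ribosomal protein (MRP) genes were followed in SCC23 cells, an established line of head and neck squamous cell carcinoma (HNSCC), with and without KMT2D-KO and with and without glucose. The members were all genes in the deposited count tables whose symbol is MRPL or MRPS followed by a number and at most 1 letter from A to C. This gave 78 of the 59471 gene names, 49 with an MRPL and 29 with an MRPS symbol. By their accepted place in the particle, 51 belong to the large subunit (among them MRPS30 and MRPS18A, despite their symbols) and 26 to the small subunit. The remaining member, MRPS36, has been assigned to the 2-oxoglutarate dehydrogenase complex and is not placed in the mitoribosome.

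The mitoribosome translates the mRNAs encoded by mitochondrial DNA, all of which specify subunits of the oxidative phosphorylation complexes. Its RNA parts are made inside the organelle, whereas every MRP is encoded in the nucleus, translated in the cytosol and imported, so that assembly needs balanced supply from both genomes. Some MRPs descend from bacterial ribosomal proteins and carry names such as uL22m, and others arose in the mitochondrial lineage and carry names such as mL40. By this division of names 46 members have a bacterial counterpart and 31 are mitochondria-specific. The classes follow the names only, so MRPS18A (mL66) and MRPS18B (mS40) count as mitochondria-specific although they are relatives of the bacterial protein S18.

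KMT2D-KO cells of the lines KO1 and KO2 were made by transfecting a Cas9-2A-GFP plasmid with a guide RNA to KMT2D, and KMT2D-WT cells carried the same plasmid with a guide to LacZ. GFP-positive cells were sorted, and no cloning of single cells is described. Poly(A) RNA was sequenced from cells in high-glucose medium (+Glc, 3 KMT2D-WT and 4 KMT2D-KO libraries) and from cells deprived of glucose for 6 h (-Glc, 3 KMT2D-WT and 4 KMT2D-KO libraries). Experiment 1 held 1 library each of KMT2D-WT, KO1 and KO2 per condition, and experiment 2 held 2 of KMT2D-WT and 1 per line in each condition. The experiments are described as independent. Whether the libraries of a genotype within an experiment came from separate cultures is not stated, so that part of the spread behind the p-values may be technical.

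Total counts ranged from 15669154 to 62968057 per library, of which MRP genes took between 0.413% and 0.86%. In the 4 +Glc libraries of experiment 2 each mate of a pair was counted as a read, and glucose and type of library cannot be told apart in that experiment. KMT2D itself was at 279.3, 265.5 and 271.3 CPM (library-scaled counts after TMM normalization over all 14 libraries, a measure in which fewer cells and less RNA per cell cannot be told apart) in +Glc KMT2D-WT cells, at 181.9 and 184.3 CPM in KO1 and at 322.6 and 373.3 CPM in KO2. Without glucose it was at 239.2, 232.9 and 230.5 CPM in KMT2D-WT cells and at 19.9, 190.2, 151.8 and 144.7 CPM in the KMT2D-KO libraries. The KMT2D transcript was thus above KMT2D-WT in the +Glc libraries labelled KO2. A transcript level does not report a frameshift, and the -Glc KO1 library of experiment 1 stood apart from all others. The 2 -Glc KMT2D-KO libraries of experiment 2 are labelled KO1 and KO2 while their file headers both name line KO2, so without glucose the lines were kept apart only in experiment 1. Of 9 markers of squamous epithelium 8 exceeded 1 CPM in every library, and all 5 leukocyte markers stayed under 1 CPM. The summed level of 5 fibroblast markers, led by COL1A1 and none at 0 throughout, moved with genotype, from 5.19 to 7.0 CPM in +Glc KMT2D-WT and 12.5 to 21.6 CPM in +Glc KMT2D-KO libraries, and from 3.17 to 5.58 CPM and 7.37 to 14 CPM without glucose. Of 3 endothelial markers, none at 0 throughout, the summed level with glucose was 0.422 to 1.18 CPM in KMT2D-WT and 0.304 to 4.11 CPM in KMT2D-KO libraries, and without glucose 0.388 to 0.800 CPM and 2.19 to 3.31 CPM. The part of these markers in the results below was not tested.

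The members are scattered over 21 chromosomes, and no chromosome held more than 8 of them. Their promoter windows were read first, from RefSeq (GRCh38.p14, 250 bases before to 50 bases after the gene start), which held a window at the locus of 70 of the 78 members (1 under an older symbol). The other 8 are MRPL2, MRPL10, MRPL13, MRPL15, MRPL21, MRPL23, MRPL35 and MRPS28. The ETS core CCGGAAG, the motif of GABP and related factors, was present on either strand in 29 of 70 windows (41.4%), against 10.7% of all 27305 windows and 14.2% of the protein-coding ones. AAGATGGCG, a core of YY1 motifs, was in 13 windows (18.6%, against 1.85% of all and 2.74% of protein-coding windows), and in 10 of these it lay in the 50 bases after the start. The NRF1 core GCGCATGCG was in 3 windows (4.29%, against 2.1% of all and 2.76% of protein-coding windows) and the E-box CACGTG of MYC and MAX in 7 (10%, against 7.43% and 8.88%). The GC box GGGCGG was in 43 (61.4%, against 44.6% of all windows), close to the 58.5% of protein-coding ones. The 5 motifs do not contain one another, matches were exact, and a match describes letters only.

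Windows of 6 members named below, not ranked by size of change, are shown as the 150 bases before the start. They read 5′ to 3′ on the strand of the gene, with matches to any of the 5 motifs in capitals. They lie at chr4:77862680-77862829 (+) for MRPL1, chr5:154940923-154941072 (+) for MRPL22, chr5:44808797-44808946 (+) for MRPS30, chr2:223957313-223957462 (+) for MRPL44, chr19:3762532-3762681 (+) for MRPL54 and chr17:75012520-75012669 (+) for MRPL58.
MRPL1: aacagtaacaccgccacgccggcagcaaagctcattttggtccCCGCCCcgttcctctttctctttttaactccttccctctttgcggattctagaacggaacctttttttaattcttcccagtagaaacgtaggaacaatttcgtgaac
MRPL22: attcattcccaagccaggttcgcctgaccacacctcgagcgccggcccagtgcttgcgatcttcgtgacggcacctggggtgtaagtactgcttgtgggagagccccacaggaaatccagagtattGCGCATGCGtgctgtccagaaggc
MRPS30: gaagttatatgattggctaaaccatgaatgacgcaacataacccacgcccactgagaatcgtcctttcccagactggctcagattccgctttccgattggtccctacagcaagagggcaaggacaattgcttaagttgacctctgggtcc
MRPL44: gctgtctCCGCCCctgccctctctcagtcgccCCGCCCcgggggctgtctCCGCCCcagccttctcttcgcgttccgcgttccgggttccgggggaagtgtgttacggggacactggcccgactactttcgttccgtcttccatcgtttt
MRPL54: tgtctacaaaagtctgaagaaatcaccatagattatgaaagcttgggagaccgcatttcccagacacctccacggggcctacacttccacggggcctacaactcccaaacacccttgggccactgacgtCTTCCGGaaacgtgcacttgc
MRPL58: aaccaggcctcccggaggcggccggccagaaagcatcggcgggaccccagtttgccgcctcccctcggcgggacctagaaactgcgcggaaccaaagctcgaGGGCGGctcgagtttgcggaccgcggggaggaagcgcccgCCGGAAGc

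No motif was common to all 6 windows. MRPL22 carries the NRF1 core 24 bases before the start, MRPL54 and MRPL58 carry the ETS core, MRPL1 and MRPL44 carry only GC boxes, and the printed stretch of MRPS30 carries none of the 5. Short stretches show 3 further sites, the YY1 core after the starts of MRPL22 (chr5:154941099-154941122, +) and MRPS30 (chr5:44808951-44808977, +) and the ETS core beside the start of MRPL40 (chr22:19432525-19432549, +), the member that fell in both conditions.
MRPL22: ggagggcgaAAGATGGCGgcggca
MRPS30: tcgcgggcaAAGATGGCGgcggccagg
MRPL40: ggcgcacgcCCGGAAGcggcgaggg

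The ETS core was in 18 of the 48 windows of members that were higher in KMT2D-KO cells in at least 1 condition and in 11 of the 22 others, and the YY1 core was in 9 of 48 and 4 of 22. The NRF1 core was in 3 of 48 and 0 of 22. Divergent gene pairs were common, since the start of another protein-coding gene lay within 500 bases upstream on the opposite strand for 16 members (20.5%), against 7.44% of the 19106 other protein-coding genes. MRPL46 and MRPS11 are each other's partner at 63 bases, MRPS12 is paired with SARS2 (mitochondrial seryl-tRNA synthetase) at 181 bases, and MRPL36 and MRPL47 are paired with the complex I genes NDUFS6 and NDUFB5, both at 41 bases.

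Levels were compared between members only after division by exonic length. MRPL41 was highest, at 226.5 CPM per kilobase (mean of 14 libraries), followed by MRPL51 at 137.3 and MRPL37 at 117.7 CPM per kilobase, all 3 being mitochondria-specific proteins of the large subunit. MRPS24, which codes for uS3m, was the lowest tested member at 0.680 CPM per kilobase, and MRPL46 followed at 1.27. The exons of MRPS24 overlap URGCP-MRPS24 over 23.2% of their length, and those of MRPL46 overlap AC013489.1 over 11.3%. Reads in these shared bases were not assigned, so both low levels are uncertain. MRPL53 had a count in only 1 of 14 libraries (2 counts in +Glc KMT2D-WT, 0.0338 CPM) and was not tested. Its exons overlap AC005041.5 and CCDC142 over 99.4% of their length, and reads shared between genes were not assigned to either in these tables, so its level cannot be read. In 11 members more than 25% of the exonic bases overlap another gene, and besides MRPL53 those named here are MRPL12 (69.5%), MRPS18A (50.9%), MRPL38 (45.1%), MRPS18C (40.2%), MRPL43 (36.9%), MRPL9 (36%), MRPS28 (35.8%), MRPS34 (31.2%) and MRPL51 (27.6%). Reads in the shared bases were not assigned, and their values are uncertain to that extent. Pseudogene copies with their own symbol exist for 36 members. The paper describes counting uniquely mapped reads, so reads that fit a member and a copy equally well would be left out.

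The first question was whether MRP transcripts differed between KMT2D-KO and KMT2D-WT cells kept in glucose. About as large a share of the members of each subunit was higher in KMT2D-KO cells, and few were lower. Of the 77 members tested, 40 (51.9%) were higher and 2 were lower in edgeR's quasi-likelihood fit with experiment as a covariate, where a call needs a Benjamini-Hochberg (BH) adjusted p under 0.05 over all genes tested. Over all 20423 genes tested, 13% were higher and 11.7% were lower. The median log2 fold change of the members was 0.33 (quartiles 0.20 and 0.55), a 1.26-fold difference, against 0.02 over all genes tested.

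The summed MRP level shows the same in each library. In experiment 1 it was 5717 CPM in KMT2D-WT, 6886 in KO1 and 7757 in KO2, and experiment 2 gave 3877 and 3904 CPM in KMT2D-WT, 4750 CPM in KO1 and 5326 CPM in KO2. Within each experiment both KMT2D-KO libraries lay above KMT2D-WT, while the levels of the 2 experiments differed by more than the genotypes did. Measured against the KMT2D-WT libraries of the same experiment, the median member differed by 0.27 (KO1) and 0.43 (KO2) in experiment 1 and by 0.29 (KO1) and 0.44 (KO2) in experiment 2 on the log2 scale of CPM + 0.5. Between 64 and 70 of 77 members were higher in each KMT2D-KO library. The 2 KMT2D-WT libraries of experiment 2 differed by a median of only -0.01, with 37 of 77 members higher in one of them. Within both experiments 53 members lay wholly above and 2 wholly below the KMT2D-WT libraries, against 21.7% and 21.3% of all genes tested.

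**Figure D1:**
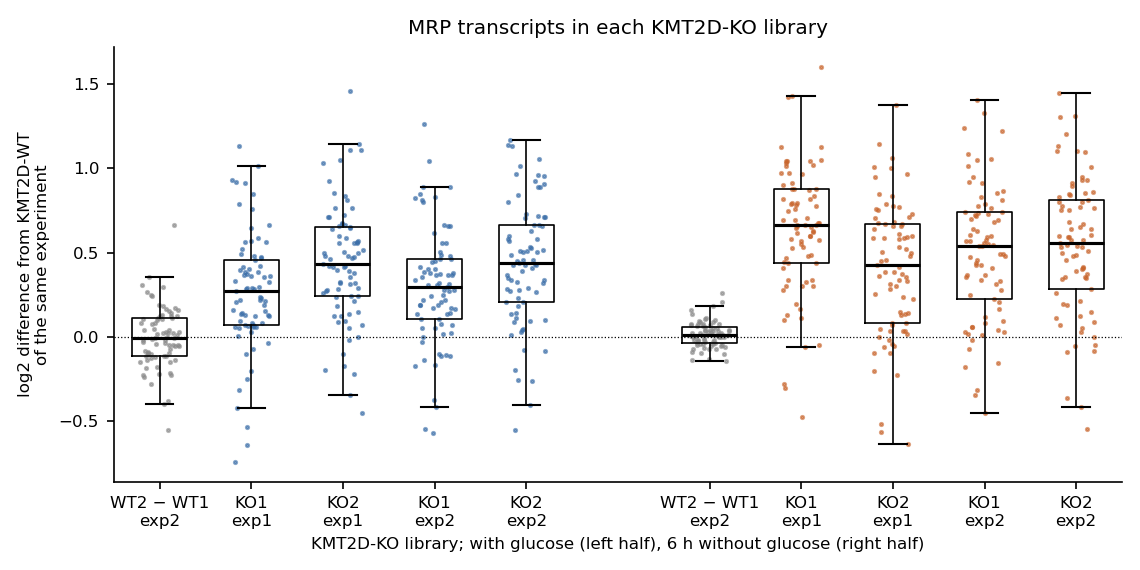
Log2 difference of each of 77 MRP genes from the KMT2D-WT libraries of the same experiment and condition, in each KMT2D-KO library (points: genes; boxes: median and quartiles; whiskers: the farthest gene within 1.5 times the interquartile range). Grey points compare the 2 KMT2D-WT libraries of experiment 2, whose medians are -0.01 and 0.01, whereas the medians of the 8 KMT2D-KO libraries run from 0.27 to 0.66.

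The 5 members with the largest increase with glucose were MRPL1, MRPL22, MRPS28, MRPS18C and MRPL15, all with a bacterial counterpart. MRPL22 (chromosome 5, 154941073 to 154969411) encodes uL22m, a protein of the exit tunnel of the large subunit. It was at 89.6 CPM in KMT2D-WT and 181.3 and 193.9 CPM in KMT2D-KO libraries of experiment 1, and at 52.4 and 58.8 CPM against 114.9 and 122.5 CPM in experiment 2. Every KMT2D-KO library exceeded every KMT2D-WT library. Its log2 fold change was 1.09 (SE 0.08, edgeR BH-adjusted p = 7.02e-05).

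MRPL1 (chromosome 4, 77862830 to 77952785) encodes uL1m of the stalk that handles outgoing tRNA. Its level was 13.9, 26.2 and 28.3 CPM in KMT2D-WT and 31.2, 39.1, 50.8 and 60.4 CPM in KMT2D-KO libraries, again without overlap. The log2 fold change of 1.15 was the largest of any member with glucose (SE 0.13, edgeR BH-adjusted p = 0.000441). In MRPL15, which encodes uL15m of the large subunit, KMT2D-WT libraries ranged from 73.5 to 95.1 CPM and KMT2D-KO libraries from 134.0 to 205.7 CPM (log2 fold change 0.95 ± 0.10 SE, edgeR BH-adjusted p = 0.00031).

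MRPS18C and MRPS28 moved as much, at levels that differed between the experiments. MRPS18C (chromosome 4, 83455932 to 83469735) encodes bS18m, 1 of 3 human relatives of the bacterial protein S18. It was at 31.5 CPM in KMT2D-WT and 53.8 and 70.3 CPM in KMT2D-KO libraries of experiment 1, and at 11.0 and 9.39 CPM against 19.3 and 21.6 CPM in experiment 2 (log2 fold change 1.00 ± 0.13 SE, edgeR BH-adjusted p = 0.000788). Of the other relatives of S18, MRPS18A (mL66, large subunit) rose by 0.45 (edgeR BH-adjusted p = 0.0479), and MRPS18B (mS40, small subunit) gave 0.27 and did not pass (adjusted p = 0.124). MRPS28 (bS1m) rose by 1.08 (SE 0.19, edgeR BH-adjusted p = 0.00414), from 3.34 and 2.42 CPM to 7.54 and 7.04 CPM in experiment 2, and with 10.2 CPM against 14.8 and 17.7 CPM in experiment 1.

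Against this direction, MRPL40 and MRPL43 were lower, both mitochondria-specific proteins of the large subunit. MRPL40 (chromosome 22, 19431902 to 19436075) was at 68.0, 39.2 and 38.4 CPM in KMT2D-WT and at 43.3, 49.5, 26.3 and 29.2 CPM in KMT2D-KO libraries, lower in both lines of both experiments (log2 fold change -0.50 ± 0.09 SE, edgeR BH-adjusted p = 0.00456). MRPL43 was at 113.3, 56.4 and 52.7 CPM in KMT2D-WT and at 78.0, 97.1, 42.0 and 45.6 CPM in KMT2D-KO libraries (log2 fold change -0.33 ± 0.10 SE, edgeR BH-adjusted p = 0.0414). The call of MRPL43 was lost on leaving out any KMT2D-WT library or the KO1 library of either experiment (log2 fold change -0.28 to -0.36 without them), and its exons overlap SEMA4G and TWNK. That of MRPL40 was lost without the KMT2D-WT library of experiment 1.

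Functional sites of the particle were represented among the genes that rose. MRPL12 encodes bL12m, the stalk protein that recruits translation factors and also binds the mitochondrial RNA polymerase. It rose from 54.5 to 70.2 and 96.0 CPM in experiment 1 and from 12.8 and 11.1 to 21.9 and 23.6 CPM in experiment 2, a log2 fold change of 0.81 (SE 0.14, edgeR BH-adjusted p = 0.00311). MRPL58, a peptidyl-tRNA hydrolase built into the large subunit, rose by 0.56 (adjusted p = 0.00893), and MRPS12, uS12m of the decoding centre, by 0.46 (adjusted p = 0.0338), while MRPL11, uL11m of the stalk base, gave 0.33 and did not pass (adjusted p = 0.0715). MRPS36, which is not placed in the mitoribosome, was at 21.7 ± 1.87 CPM (SD, n = 3) in KMT2D-WT and at 21.8 ± 1.28 CPM (SD, n = 4) in KMT2D-KO libraries (log2 fold change 0.01, edgeR BH-adjusted p = 0.972).

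Under some other fits the members stood out less from all genes. Without experiment as a covariate 4 members passed, all higher (median 0.46), and these 5.19% of members compare with 4.75% of all genes called in either direction in that fit. When KMT2D-WT of experiment 1 was left out, 16 members (20.8%) passed, all higher, with a median of 0.32, against 10.0% of all genes, and the calls of MRPL58, MRPS34, MRPL9 and MRPL44 were among those lost. The calls of MRPS12 and MRPS18A were lost on leaving out any KMT2D-WT library or the KO2 library of either experiment. Fitted alone, line KO1 gave 39 higher and 4 lower members with a median of 0.28 (55.8% called, against 30.6% of all genes), and line KO2 gave 56 and 2 with a median of 0.44 (75.3% against 35.0%). In experiment 1 alone (1 KMT2D-WT against 2 KMT2D-KO libraries) the median was 0.33 with 1 member past the limit (1.30%, against 1.73% of all genes), and in experiment 2 alone it was 0.32 with 18 (23.4% against 11.7%).

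The second question was whether the difference was present after 6 h without glucose. It was, and in a larger number of members, while the share of all genes called higher also rose, from 13% with to 25.9% without glucose. Of 77 tested, 54 (70.1%) were higher and 1, MRPL40, was lower in the edgeR fit with BH adjustment, against 25.9% higher and 24.9% lower of the 16782 genes tested. The median log2 fold change was 0.52 (quartiles 0.22 and 0.77), 1.43-fold, against 0.00 over all genes tested.

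The summed MRP level was 6128 CPM in KMT2D-WT, 9750 in KO1 and 8402 in KO2 (experiment 1), and 4672 and 4686 CPM in KMT2D-WT against 6894 and 7117 CPM in the KMT2D-KO libraries of experiment 2. All 4 KMT2D-KO libraries lay above every KMT2D-WT library. Median member differences from KMT2D-WT of the same experiment were 0.66 and 0.43 in experiment 1 and 0.54 and 0.56 in experiment 2, with 65 to 72 of 77 members higher, whereas the 2 KMT2D-WT libraries of experiment 2 differed by 0.01. Within both experiments 61 members lay wholly above and 2 wholly below KMT2D-WT, against 31.6% and 32.3% of all genes tested. The highest of these medians belonged to the KO1 library of experiment 1, the one with KMT2D at 19.9 CPM.

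The 5 largest increases without glucose were in MRPS30, MRPL22, MRPS34, MRPL1 and MRPS28. MRPS30 (chromosome 5, 44808947 to 44820428), which encodes mL65 of the large subunit, led. It was at 48.3, 64.1 and 63.1 CPM in KMT2D-WT and at 130.7, 126.3, 169.2 and 174.1 CPM in KMT2D-KO libraries, a clear gap between groups (log2 fold change 1.41 ± 0.07 SE, edgeR BH-adjusted p = 3.96e-05). MRPL22 was at 94.8, 67.7 and 64.7 CPM in KMT2D-WT and at 255.9, 198.9, 166.9 and 164.1 CPM in KMT2D-KO libraries (log2 fold change 1.28 ± 0.11 SE, edgeR BH-adjusted p = 0.000205).

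MRPS34 encodes mS34, a mitochondria-specific protein of the small subunit. It was at 95.8, 68.2 and 68.3 CPM in KMT2D-WT and at 210.1, 212.1, 160.1 and 158.2 CPM in KMT2D-KO libraries, where the 4 values lay above all 3 controls (log2 fold change 1.17 ± 0.06 SE, edgeR BH-adjusted p = 4.33e-05). MRPL1 rose by 1.14 (SE 0.08, edgeR BH-adjusted p = 8.89e-05), from 20.5 CPM to 38.7 and 41.8 CPM in experiment 1 and from 44.4 and 46.4 to 107.8 and 113.3 CPM in experiment 2. MRPS28 rose by 1.12 (SE 0.23, edgeR BH-adjusted p = 0.00664), with its highest value, 32.6 CPM, in the KO1 library of experiment 1 and 19.1, 9.25 and 10.3 CPM in the other 3.

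Several members that had not passed with glucose did so without it. MRPL11 rose by 0.72 (adjusted p = 0.00043), MRPL41 by 0.53 (adjusted p = 0.00129) and MRPS18B by 0.35 (adjusted p = 0.00373), all in the edgeR fit with BH adjustment. MRPL12 rose by 0.99 (SE 0.10, edgeR BH-adjusted p = 0.000338), from 60.2 to 124.4 and 103.1 CPM in experiment 1 and from 41.0 and 43.1 to 85.6 and 90.9 CPM in experiment 2, so that its groups no longer overlapped. MRPL58 rose by 0.86 (adjusted p = 0.000124), MRPS12 by 0.65 (adjusted p = 0.00221), MRPS18A by 0.82 (adjusted p = 0.00141) and MRPS18C by 0.79 (adjusted p = 0.00319) in the same edgeR test.

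MRPL40 again went the other way, at 75.6, 49.1 and 47.7 CPM in KMT2D-WT and 61.2, 48.5, 35.2 and 36.1 CPM in KMT2D-KO libraries (log2 fold change -0.47 ± 0.11 SE, edgeR BH-adjusted p = 0.0102). MRPL43 gave -0.15 and did not pass (edgeR BH-adjusted p = 0.157). MRPS36 gave 0.12 (adjusted p = 0.258), with 22.4 to 23.4 CPM in KMT2D-WT and 23.2 to 28.0 CPM in KMT2D-KO libraries.

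Without experiment as a covariate 17 members passed, all higher (median 0.60), which is 22.1% of members against 21.8% of all genes called in either direction. With the closely similar pairs of experiment 2 (KMT2D-WT with KMT2D-WT, KMT2D-KO with KMT2D-KO) summed to 1 sample each, 27 passed, all higher (median 0.53; 35.1% against 16.5%). Leaving out the KO1 library of experiment 1 gave 59 higher and 4 lower members with a median of 0.48 (81.8% against 74.4%), and leaving out the KMT2D-WT library of that experiment ended the calls of MRPL40 and MRPS28. Experiment 1 alone gave 0 calls by edgeR among all genes, with 11 members at an unadjusted p under 0.05 and a median of 0.55, and experiment 2 alone gave 61 higher and 4 lower with a median of 0.51 (84.4% against 74.5%).

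The subunits and the 2 classes by name were described side by side. Over all genes tested the share higher also rose, from 13% with to 25.9% without glucose. A larger count without glucose is therefore not particular to a class. With glucose 27 of 50 tested members of the large subunit and 13 of 26 of the small subunit were higher, with medians of 0.33 and 0.39. Without glucose these were 39 of 50 and 15 of 26, with medians of 0.54 and 0.41. Members with a bacterial counterpart were higher in 25 of 46 cases with glucose and 35 of 46 without (medians 0.39 and 0.54), and mitochondria-specific members in 15 of 30 and 19 of 30 (medians 0.29 and 0.50). The 3 calls of lower level, MRPL40 in both conditions and MRPL43 with glucose, fell in the mitochondria-specific class of the large subunit. The summed level of the large subunit relative to the small was 1.92 to 2.05 in KMT2D-WT and 2.00 to 2.27 in KMT2D-KO libraries over both conditions, and the highest ratio was in the -Glc KO1 library of experiment 1.

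Of the members higher with glucose, 38 of 40 (95.0%) were also higher without it, which is 70.4% of the 54 higher without glucose. For this overlap, and for the counts of sign and size below, no share over all genes is given. They therefore describe the members only and do not set them apart from other genes. A further 16 passed only without glucose, 2 passed only with it, and 19 passed in neither condition in either direction. These last had log2 fold changes from -0.21 to 0.39 with glucose and from -0.34 to 0.37 without, and MRPS5, MRPS9, MRPS11, MRPS14, MRPS16, MRPS23 and MRPS27 of the small subunit were among them. The fold change was positive in both conditions for 68 members and negative in both for 4. In 60 of 77 members it was larger without glucose. The TMM factors on the scale of all 14 libraries split by genotype without glucose. They were 1.034 to 1.091 in -Glc KMT2D-WT and 0.8625 to 0.8931 in -Glc KMT2D-KO libraries. With glucose they were 1.059 to 1.074 and 1.006 to 1.064. The part of this scaling in the larger values without glucose was not tested, nor was that of the uncertain lines in the -Glc libraries of experiment 2.

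**Figure D2:**
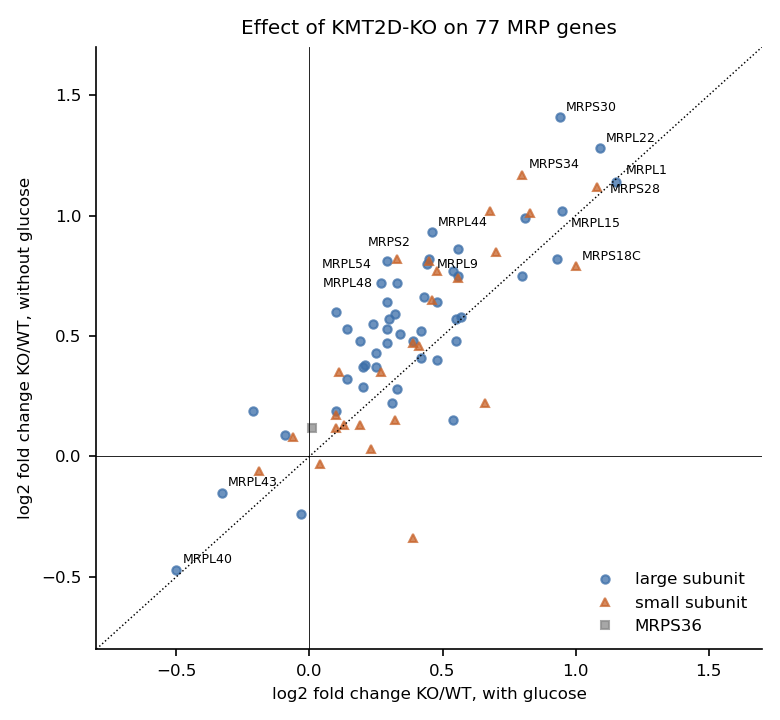
Log2 fold change of KMT2D-KO over KMT2D-WT for 77 MRP genes with glucose (x axis) and after 6 h without glucose (y axis), from edgeR's fits with experiment as a covariate, with circles for the large subunit, triangles for the small subunit and a square for MRPS36. On the dotted line both values are equal, 60 genes lie above it, and MRPL40 lies lowest at -0.50 and -0.47.

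Whether the effect of KMT2D-KO itself depended on glucose was tested in a joint fit of the 14 libraries that gave each condition its own experiment term. In 6 of 77 members (7.79%) the effect was larger without glucose, and in 0 it was smaller, in the edgeR fit with BH adjustment, against 4.73% and 6.54% of the 18678 genes tested. The share called was thus near that of all genes. If the file headers of the -Glc KMT2D-KO libraries of experiment 2 are right, the mix of lines differed between the conditions. With glucose the lines gave medians of 0.28 (KO1) and 0.44 (KO2) when fitted alone. Line and glucose cannot be fully told apart here, and the part of the lines was not tested. The median difference of the members was 0.19 on the log2 scale, against 0.00 for all genes tested.

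These 6 were MRPL54, MRPS2, MRPS30, MRPL44, MRPL48 and MRPL9. MRPL54 encodes mL54, a mitochondria-specific protein of the large subunit. With glucose it was at 63.6, 27.2 and 24.0 CPM in KMT2D-WT and 73.8, 79.2, 31.7 and 31.0 CPM in KMT2D-KO libraries, and without glucose at 68.7, 30.8 and 31.4 CPM and 141.2, 110.4, 52.2 and 56.2 CPM. The effect was 0.29 with glucose (adjusted p = 0.0473, a call lost on leaving out any of the 7 libraries) and 0.81 without (adjusted p = 0.00150), and the difference of 0.55 (standard error 0.13) had an adjusted p = 0.0221 in the edgeR fit with BH adjustment.

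For MRPS2, uS2m of the small subunit, KMT2D-WT libraries ranged from 88.4 to 131.8 CPM with glucose and from 100.3 to 141.1 CPM without, whereas KMT2D-KO libraries ranged from 99.8 to 186.1 CPM and from 187.2 to 239.4 CPM. The difference of its effects was 0.51 (SE 0.14, edgeR BH-adjusted p = 0.0369). MRPL44, a protein with an RNase III-like fold, was at 31.9 to 35.6 CPM and 31.6 to 33.7 CPM in KMT2D-WT cells with and without glucose. In KMT2D-KO cells it was at 41.5 to 56.1 CPM and 59.5 to 68.8 CPM, giving a difference of 0.49 (SE 0.12, edgeR BH-adjusted p = 0.0244). The differences for MRPS30 (0.49, adjusted p = 0.0107), MRPL48 (0.48, adjusted p = 0.0484) and MRPL9 (0.38, adjusted p = 0.0455) completed the list.

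Without experiment as a covariate, or with the close pairs summed, 0 members passed in edgeR (1 and 9 at an unadjusted p under 0.05), where 0.375% and 1.23% of all genes did, and single libraries left out gave from 1 to 13 calls. Leaving out any of the 6 KMT2D-WT libraries, the +Glc KO1 library of experiment 2 or either -Glc KMT2D-KO library of experiment 2 gave 1 or 2 calls, and leaving out the -Glc KO1 library of experiment 1 gave 13 (16.9%, against 22.5% of all genes).

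**Figure D3:**
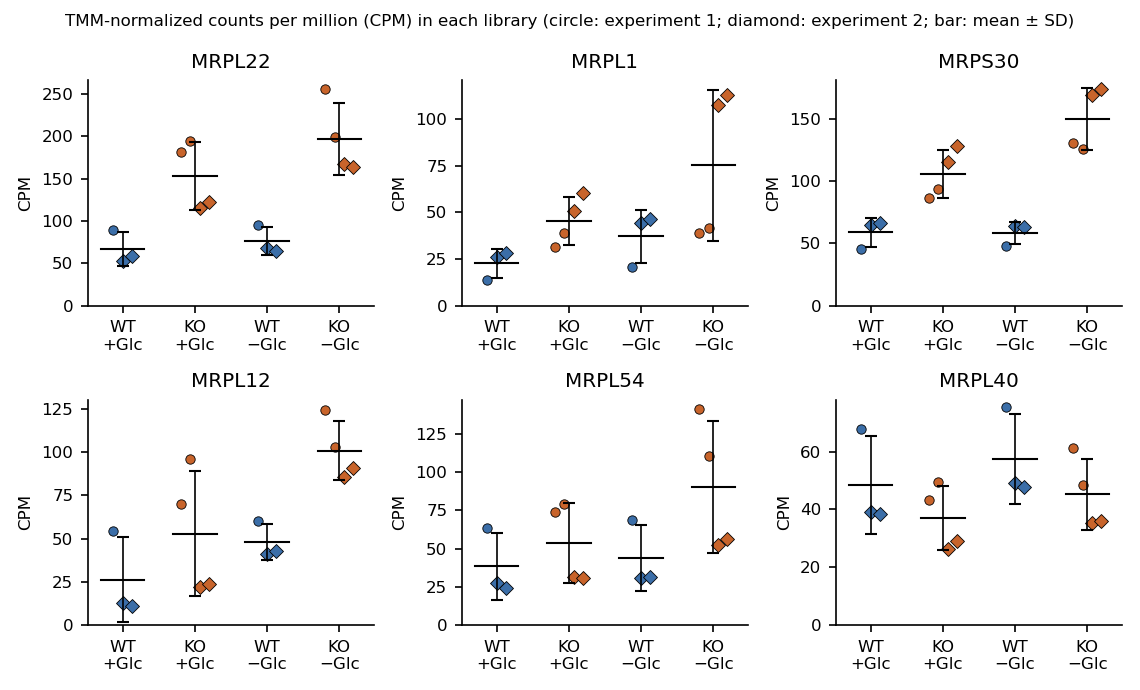
TMM-normalized CPM of 6 MRP genes in each library by group, with circles for experiment 1, diamonds for experiment 2, and bars for the mean ± SD (n = 3 KMT2D-WT and 4 KMT2D-KO libraries per condition). MRPL22 and MRPS30 separate the genotypes in both conditions, MRPL54 separates them within each experiment, and MRPL40 is lower in KMT2D-KO cells.

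The response to glucose deprivation was read in experiment 1, where both conditions were sequenced alike, as the change within KMT2D-WT, KO1 and KO2, with line as a block. None of the 77 members passed (0 calls in the edgeR fit with BH adjustment, 11 at an unadjusted p under 0.05), and among all 16066 genes tested 0.479% were higher and 0.622% lower. The median log2 fold change of the members was 0.21, against -0.02 over all genes tested. The median log2 ratios, which were not tested between lines, were 0.10 in KMT2D-WT (65 of 77 members higher), 0.44 in KO1 (76 higher) and 0.10 in KO2 (55 higher). Over all genes tested the median ratios were 0.01 in KMT2D-WT, -0.01 in KO1 and 0.02 in KO2. For 71 of 77 members the largest ratio was that of KO1, and without either KO1 library the median over the other lines was 0.10. Each ratio rests on 1 pair of libraries per line, so the members are not replicates of it. No share over all genes is given for these counts.

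The smallest p-values belonged to MRPL54, MRPL41 and MRPL38. MRPL54 changed from 63.6 to 68.7 CPM in KMT2D-WT, from 73.8 to 141.2 CPM in KO1 and from 79.2 to 110.4 CPM in KO2 (log2 fold change 0.49, edgeR BH-adjusted p = 0.182). For MRPL41 the values were 154.6 and 167.0 CPM, 143.8 and 252.9 CPM, and 185.6 and 240.6 CPM (edgeR BH-adjusted p = 0.217). MRPL38 was low throughout, at 5.86 and 8.84 CPM, 4.61 and 6.21 CPM, and 7.02 and 12.1 CPM (edgeR BH-adjusted p = 0.223). With all 14 libraries in the fit 51 members were higher and 1 lower without glucose (67.5% called, against 47.1% of all genes), but in experiment 2 this contrast coincides with the type of library.

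**Figure D4:**
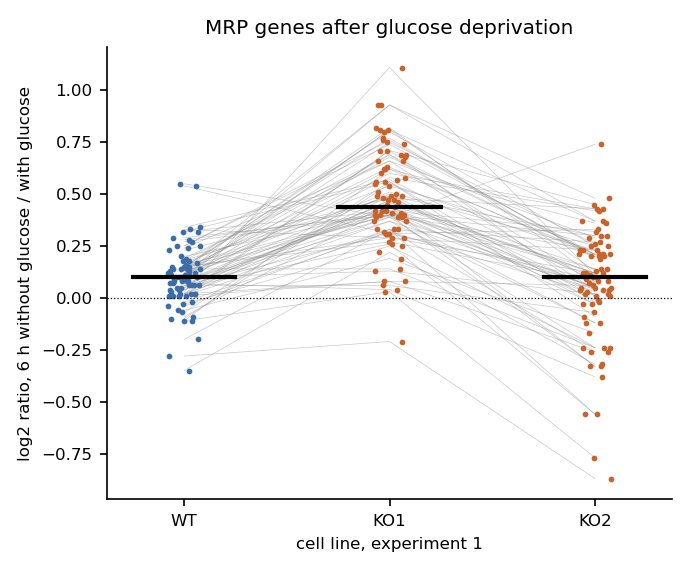
Log2 ratio (CPM + 0.5) of 6 h without glucose over with glucose for 77 MRP genes in each line of experiment 1, with thin lines joining the values of a gene and black bars at the medians. Medians are 0.10 in KMT2D-WT, 0.44 in KO1 and 0.10 in KO2.

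Other genes of mitochondrial gene expression were listed by function to set the members in context. The shares over all genes tested were 13% higher and 11.7% lower with glucose, and 25.9% higher and 24.9% lower without. Of 5 mitoribosomal proteins with other symbols tested, 2 (40.0%) were higher with glucose and 4 (80.0%) without (medians 0.33 and 0.59). CHCHD1 (mS37) gave -0.11 and -0.08 and passed in neither. DAP3 (mS29) rose by 0.26 with glucose (edgeR BH-adjusted p = 0.0460), AURKAIP1 (mS38) by 0.33 with and 0.65 without glucose (adjusted p = 0.0422 and 0.00360), and GADD45GIP1 (mL64) by 0.88 without glucose (adjusted p = 0.000228).

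Factors that assemble the particle or modify its RNA moved both ways. Of 27 tested with glucose 7 were higher (25.9%) and 3 lower (11.1%). Of 26 without glucose 7 were higher (26.9%) and 4 lower (15.4%). The medians were 0.13 and 0.15. Without glucose the share higher was thus near that of all genes. MALSU1, which acts late on the large subunit, rose by 0.73 with glucose (edgeR BH-adjusted p = 0.00214), and NOA1, an assembly GTPase, rose by 0.74 without it (adjusted p = 0.00017). ERAL1, a chaperone of 12S rRNA, fell by 0.48 with glucose (adjusted p = 0.00477), and TFB1M, which dimethylates that rRNA, fell by 0.79 without it (adjusted p = 0.00105). MTG1, a GTPase of large subunit assembly, fell by 0.65 and 0.64 (edgeR BH-adjusted p = 0.0147 and 0.00150). The exons of MTG1, MALSU1 and TFB1M overlap other genes over 57.3%, 41% and 38.7% of their length, and their values are uncertain to that extent.

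Translation factors were higher in 3 (18.8%) and lower in 1 (6.25%) of 16 genes with glucose. Without glucose they were higher in 7 (43.8%) and lower in 2 (12.5%) of 16 (medians 0.21 and 0.19). The elongation factor genes GFM1 and TUFM rose, GFM1 by 0.45 with glucose (adjusted p = 0.0170) and TUFM by 0.71 without (adjusted p = 0.000128), in the edgeR fit with BH adjustment. GFM2, which recycles ribosomes, fell by 0.74 and 0.66 (adjusted p = 0.000453 and 0.000575). LRPPRC, which stabilises mitochondrial mRNAs, rose by 0.57 and 0.66 (adjusted p = 0.00129 and 0.00256), and the rescue factor gene C12orf65 fell by 1.33 without glucose (adjusted p = 0.000276).

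Mitochondrial aminoacyl-tRNA synthetases gave 3 higher and 1 lower of 20 with glucose and 6 higher and 5 lower of 19 without, with medians of 0.03 and -0.11. YARS2 rose by 0.66 and 0.71 (edgeR BH-adjusted p = 0.00453 and 0.000469), and HARS2 fell by 0.64 and 0.75 (adjusted p = 0.000986 and 0.0002). Genes of mitochondrial DNA replication and transcription gave 3 higher and 1 lower of 12 with glucose and 1 higher and 4 lower of 12 without (medians 0.10 and -0.18). TEFM, the elongation factor of mitochondrial transcription, fell by 1.10 and 2.01 (adjusted p = 0.000274 and 0.000427), whereas TOP1MT, the mitochondrial topoisomerase, rose by 0.38 and 0.94 (edgeR BH-adjusted p = 0.0397 and 0.000117).

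The mitochondrially encoded mRNAs, which the mitoribosome translates, were higher in 2 (15.4%) and lower in 0 of 13 with glucose, a share near the 13% of all genes. Without glucose they were higher in 8 (61.5%, against 25.9% of all genes) and lower in 0 of 13. Their medians were 0.23 with and 0.55 without glucose. MT-CO1, a core subunit of cytochrome c oxidase, rose by 0.48 and 1.06 (edgeR BH-adjusted p = 0.0330 and 0.000177). These mRNAs carry short poly(A) tails, and their summed level in +Glc KMT2D-WT libraries was 24004 CPM in experiment 1 and 38461 and 51657 CPM in experiment 2, a wide spread within 1 genotype.

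Among 8 nuclear regulators tested, 3 (37.5%) were higher and 0 lower in each condition (medians 0.13 and 0.33). Of all genes tested, 13% were higher with and 25.9% without glucose. MYC, which has mitoribosomal genes among its known targets, rose by 0.82 with glucose (standard error 0.08, adjusted p = 0.000155) and by 2.12 without (standard error 0.07, adjusted p = 2.76e-05), and the difference of 1.34 passed as well (adjusted p = 4.49e-05), all in the edgeR fit with BH adjustment. PPARGC1B, the coactivator PGC-1beta, rose by 1.46 with glucose (edgeR BH-adjusted p = 6.66e-05) but did not pass without it (0.58, adjusted p = 0.0783). GABPB1, a subunit of the ETS factor GABP, rose by 0.54 without glucose (adjusted p = 0.00126) but did not pass with it (0.27, adjusted p = 0.104). YY1 rose by 0.33 with and 0.49 without glucose (edgeR BH-adjusted p = 0.0450 and 0.0322). GABPA (-0.05 and 0.17), NRF1 (-0.13 and -0.09), ESRRA (-0.02 and 0.04) and PPRC1 (-0.19 and 0.09) passed in neither condition.

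**Figure D5:**
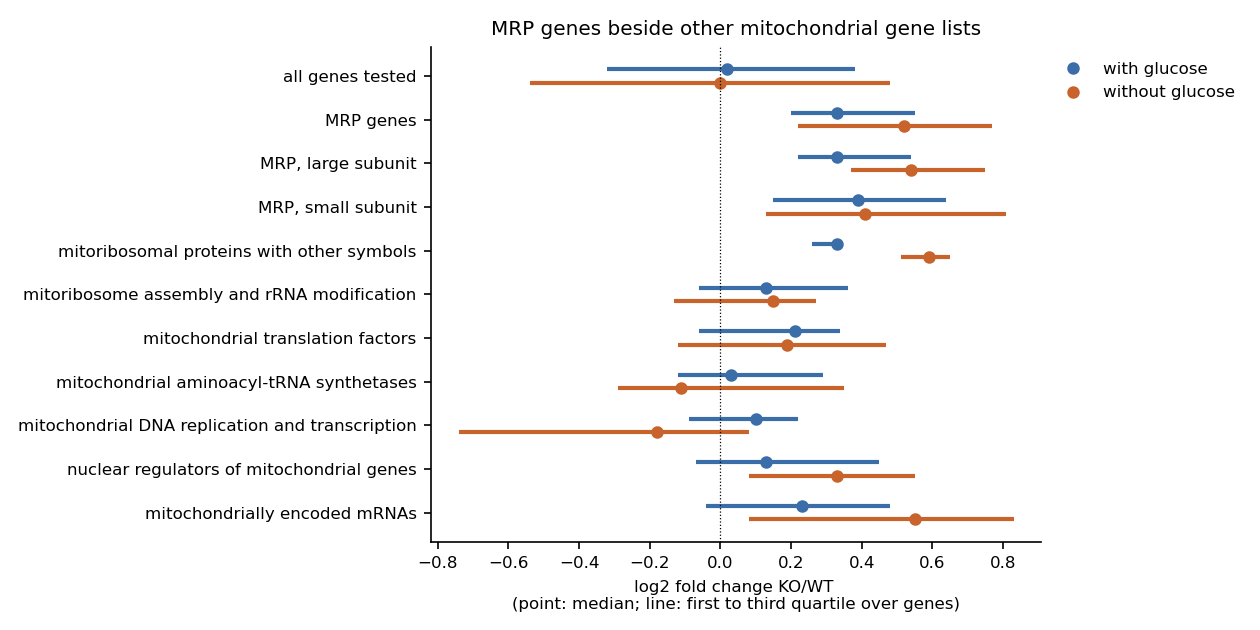
Median log2 fold change of KMT2D-KO over KMT2D-WT (points) and the quartiles over genes (lines) for all genes tested, MRP genes and lists of other mitochondrial genes, with glucose (blue) and after 6 h without (orange). The MRP medians are 0.33 and 0.52, those of all genes 0.02 and 0.00, and those of the aminoacyl-tRNA synthetases 0.03 and -0.11.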

How the data were processed

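RNA-seq of SCC23 cells was analysed in 14 libraries. The authors mapped reads to GRCh38 with HISAT2 and counted them per gene name with featureCounts 2.0.3 on Ensembl 102 without regard to strand, and they deposited raw counts. Groups came from the labels. The deposited counts went into edgeR (version 4.0.16, R 4.3.3), where low genes were removed by filterByExpr at a count of 10, libraries were scaled by TMM, and the quasi-likelihood test was called at a Benjamini-Hochberg (BH) adjusted p-value under 0.05. Standard errors are the absolute log2 fold change divided by the square root of F. The study's methods name DESeq2 without a covariate. Here experiment, which the labels give, was a covariate, and the shift between experiments was correlated over genes between the genotypes (Pearson's r = 0.91 with and 0.85 without glucose). Deprivation was fitted with line as a block. Levels are CPM on 1 TMM scale over 14 libraries, and library differences use log2(CPM + 0.5). Counts of a library give sampling error only, so replicates set the precision.

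The members and gene lists were chosen with earlier results of these data known, and lists were described by counts and medians, without a set test. Named members were, per comparison, the 5 largest called changes in each direction with the same sign in both experiments, every member called in the test of the difference, the 3 smallest p-values where none was called, the 3 highest and 3 lowest levels per length, members not tested, and MRPL12, MRPL11, MRPL58, MRPS12, MRPS18A, MRPS18B, MRPS18C, MRPS30 and MRPS36. Members that passed in neither condition, the partners of divergent pairs and CHCHD1 were named after their values were seen. The same holds for YY1, GABPA, NRF1, ESRRA and PPRC1. Promoter windows were accepted only at the member's own locus, and 3 matches of an older symbol to another gene were left out. Alternatives were no covariate, RLE scaling, no filter, gene length offsets, DESeq2 1.42.0, single experiments, single lines, all libraries in 1 fit, halved counts, summed pairs and each library left out. The scripts were tested on simulated data.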

Additional observations from a re-analysis of the deposited data

Results flagged for a closer look

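In MRPL38, the -Glc KO2 library of experiment 1 was far from the other 3 KMT2D-KO libraries, at 12.1 CPM against 5.69 to 6.21 CPM. It was the 1 such case in 58 groups of 4 libraries examined (named members, KMT2D and the summed level), where chance flags about 1 in 20. The exons of MRPL38 overlap other genes over 45.1% of their length.

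The effect of KMT2D-KO differed between the glucose conditions, by the test of the difference in edgeR with Benjamini-Hochberg adjustment, in MRPL54 (0.55 on the log2 scale), MRPS2 (0.51), MRPS30 (0.49), MRPL44 (0.49), MRPL48 (0.48) and MRPL9 (0.38), each larger without glucose. In experiment 2 the conditions also differed in the type of library, and the TMM factors split by genotype without glucose. By the file headers of experiment 2 the mix of lines KO1 and KO2 may have differed as well, and its part was not tested.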

How the results depend on the processing

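Without experiment as a covariate (the replicate block), 4 members passed with glucose (median 0.46; 5.19% of members, 4.75% of all genes), 17 without glucose (22.1% and 21.8%), and 0 in the test of the difference (1 at an unadjusted p under 0.05 in edgeR; 0.375% of all genes). DESeq2 without experiment gave 11 calls (median 0.48; 14.3% of members, 12.6% of all genes) with and 27 (median 0.66; 35.1% and 28.7%) without glucose. Experiment 1 alone gave 1 call with glucose and 0 without (11 at an unadjusted p under 0.05 in edgeR), and experiment 2 alone gave 18 with glucose. Line KO2 alone had a median of 0.44. Summed close pairs gave 27 calls without glucose and 0 in the test of the difference, for which no filter on low counts gave 2 and gene length offsets 11. For deprivation, all 14 libraries gave 52 calls (67.5% of members, 47.1% of all genes). With single libraries left out, calls with glucose ranged from 16 to 43 and those of the difference from 1 to 13. All medians kept their sign. The cause of these changes was not tested.

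Of 1092 values of named members under alternatives, 842 kept their direction and side of the limit, 211 lost and 18 gained the call, and 21 changed sign, all in values that had not passed. With glucose, MRPS36 (0.01) became -0.01 without a filter, -0.04 with length offsets, -0.07 in experiment 2 alone and -0.06 in KO1 alone, MRPL38 became -0.01 in experiment 1 alone, MRPL46 0.01 in experiment 2 alone, MRPL41 -0.06 in KO1 alone and MRPS24 -0.49 in KO2 alone. Without glucose, MRPL43 became 0.03 in DESeq2 without experiment, and MRPS24 -0.20 and MRPL46 -0.09 in experiment 2 alone. With single libraries left out the ranges were -0.07 to 0.09 (MRPS36), -0.19 to 0.01 (MRPL46) and -0.18 to 0.69 (MRPS24) with glucose, and -0.22 to 0.30 (MRPS24) and -0.09 to 0.17 (MRPL46) without. MRPS24 and MRPL46 had the lowest levels per length of the members tested.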
